A study of Arabidopsis thaliana with 9 samples.

Results

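CYP71B34, CYP71B6 and CYP71B23 are 3 cytochrome P450 genes of the CYP71B subfamily of Arabidopsis thaliana. They were chosen by name once their log2 differences among the 3 tubes were known, so those differences are a description and carry no test. They are 3 of 16550 genes that could be named from a single-gene probe set, a set of array probes summarised as 1 value, and each has 1 probe set. The gene table holds 37 CYP71B genes, of which 21 were measured, so 18 others served for comparison, together with 5 measured P450 genes of other families.

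All groups were whole roots of 10-day-old seedlings of the Wassilewskija (WS) background, grown in constant light, that carry 14-3-3κ:GFP driven by the constitutive CaMV35S promoter. No untransformed line is among the samples, so the transgene is shared by controls and flight samples. Seedlings travelled in sealed fixation tubes on the second flight of an F-104 jet, which climbed at 4 g for about 30 s and then gave about 10 s of microgravity and a brief hyper-g pull-up. The ground tube was held by a team member and actuated during the flight, the first-actuated tube received RNAlater right after microgravity, and the last-actuated tube received it after about 1.5 min of level flight. Each group is 3 replicates of roots from 1 tube, so any effect of the tube cannot be told apart from that of the flight phase, and the error shown is the spread within a tube.

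Cytochrome P450s are heme enzymes, most of them anchored in the endoplasmic reticulum, that use molecular oxygen and electrons from NADPH to hydroxylate or otherwise oxidise small molecules. Plants hold very large P450 families, which take part in making hormones, wall polymers and defence compounds and in detoxification. CYP71B is a large Arabidopsis subfamily, and many of its genes lie side by side as tandem copies. CYP71B6 acts on indole-3-acetonitrile, an intermediate of tryptophan metabolism, and turns it into indole-3-carbaldehyde with release of cyanide. The substrates of CYP71B34 and CYP71B23 are not described here. In the gene table, CYP71B23 and CYP71B34 stand at places 9 and 22 of a run of 25 neighbouring genes on chromosome 3, from CYP71B16 to CYP71B37, of which 18 are CYP71B genes and 13 of those were measured. CYP71B6 lies on chromosome 2, which holds no other measured CYP71B gene.

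The 3 genes were all higher in first-actuated than in ground roots and differed in what was seen in the last-actuated tube. There CYP71B34 was higher still, CYP71B6 stood between ground and first-actuated levels, and CYP71B23 stood at about the ground level. The tubes held different seedlings, so no gene was followed over time. All levels below are normalized log2 expression values, on which a difference of 1 is a doubling, and differences of means are given with their standard error (SE).

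CYP71B34 (AT3G26300) stood at 1.79, 1.90 and 1.79 on ground arrays 1, 2 and 3. It stood at 2.57, 2.36 and 2.63 on the first-actuated arrays and at 2.93, 2.75 and 2.72 on the last-actuated arrays. Each tube's arrays lay apart from those of the other tubes, in the order ground, first-actuated, last-actuated, and the gap between the flight tubes, 0.092, was far smaller than the gap of 0.46 between first-actuated and ground arrays. The group means were 1.83 ± 0.060 (SD, n = 3) on the ground, 2.52 ± 0.14 in the first-actuated and 2.80 ± 0.12 in the last-actuated tube. The first-actuated mean was 0.69 ± 0.090 (SE) above the ground mean, 1.61-fold. The last-actuated mean was 0.97 ± 0.075 (SE) above it, 1.96-fold, and 0.28 ± 0.11 (SE) above the first-actuated mean. The ground level lay under 2.15, the median over all genes of the mean level, and without detection calls the size of this difference is uncertain.

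CYP71B6 (AT2G24180) stood at 3.52, 3.52 and 3.57 on the ground arrays. It stood at 4.18, 3.95 and 4.40 on the first-actuated arrays and at 3.89, 3.93 and 3.89 on the last-actuated arrays, where replicates 1 and 3 held the same value. No ground array reached the lowest flight array, while the lowest first-actuated array was only 0.023 above the highest last-actuated array. The means were 3.54 ± 0.032 (SD, n = 3), 4.18 ± 0.22 and 3.90 ± 0.025 in ground, first-actuated and last-actuated roots. The first-actuated mean was 0.64 ± 0.13 (SE) above ground, 1.56-fold, and the last-actuated mean 0.36 ± 0.023 (SE) above ground, 1.29-fold. Last-actuated minus first-actuated was -0.28 ± 0.13 (SE). That difference was -0.165 without first-actuated replicate 3, the highest of the 9 arrays for this gene. At every tube CYP71B6 lay above the median gene mean.

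CYP71B23 (AT3G26210) stood at 2.08, 2.08 and 2.04 on the ground arrays, at 2.70, 2.42 and 2.99 on the first-actuated arrays and at 1.71, 1.99 and 2.07 on the last-actuated arrays. The first-actuated arrays lay above the other 6, and the ground and last-actuated arrays overlapped. The means were 2.07 ± 0.022 (SD, n = 3), 2.70 ± 0.29 and 1.92 ± 0.19. First-actuated minus ground was 0.63 ± 0.17 (SE), 1.55-fold. Last-actuated minus ground was -0.14 ± 0.11 (SE), which became -0.037 without last-actuated replicate 1, the lowest array. Last-actuated minus first-actuated was -0.78 ± 0.20 (SE), a level 1.71-fold lower. The ground and last-actuated levels lay under the median gene mean of 2.15, and so the same uncertainty of size holds for this gene.

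**Figure D1:**
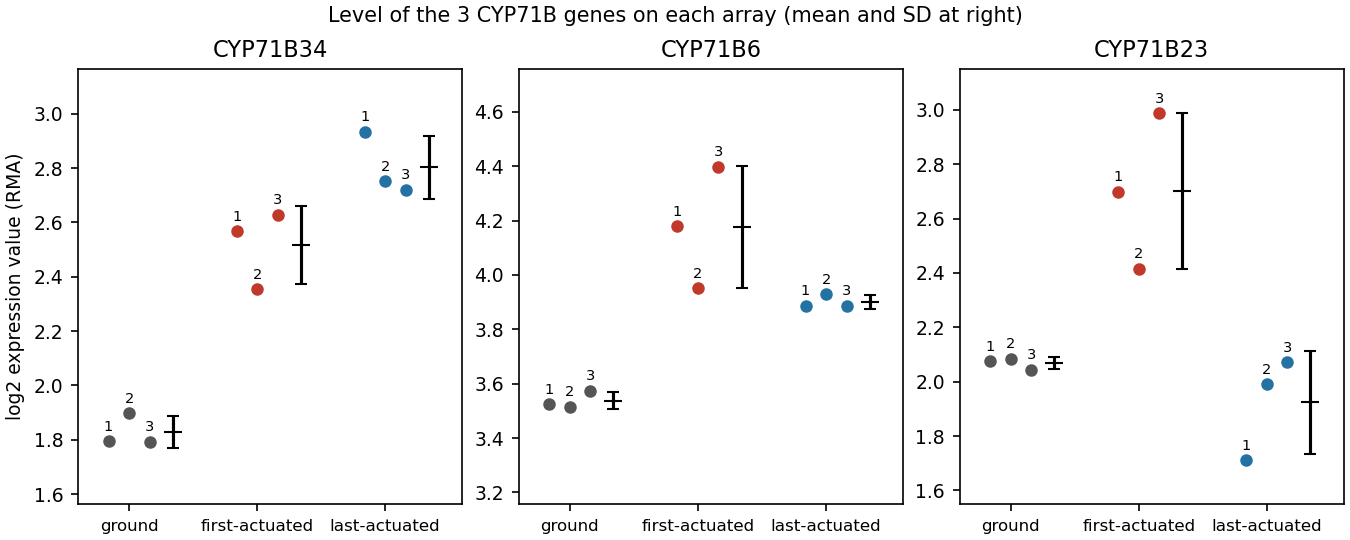
Log2 expression value (RMA, vertical axis, each panel spanning the same 1.6 units) of CYP71B34, CYP71B6 and CYP71B23 on each array of the ground, first-actuated and last-actuated tubes. Points carry the replicate number and bars show the mean and SD of the 3 arrays. The ground points sit close together in each panel, and the last-actuated points sit highest for CYP71B34, in between for CYP71B6 and beside the ground points for CYP71B23.

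All 3 of these genes had every first-actuated array above every ground array, which held for 9.41% of all genes tested. Between last-actuated and ground arrays this held for 2 of the 3, CYP71B34 and CYP71B6, and for 7.26% of all genes. Last-actuated arrays all lay above the first-actuated arrays for CYP71B34 (9.01% of all genes) and all below them for CYP71B6 and CYP71B23 (9.09% of all genes). Since the genes were listed with these values known, nothing is read from the counts.

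Among all genes tested, 2.88% had a larger first-actuated minus ground difference than CYP71B34, 3.32% a larger one than CYP71B6 and 3.35% a larger one than CYP71B23. In the last-actuated tube the same genes spread out. A larger difference from ground was found in 0.369% of genes for CYP71B34, in 6.13% for CYP71B6 and in 81.0% for CYP71B23. The difference between the flight tubes was lower than that of CYP71B23 in 1.24% of genes.

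**Figure D2:**
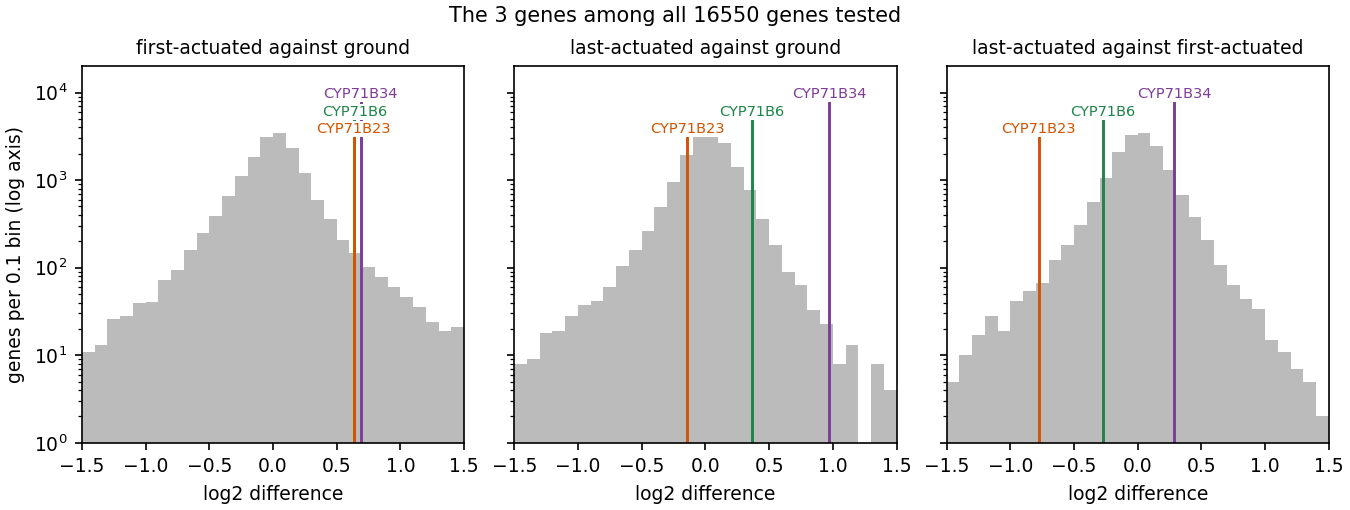
Number of genes per bin of 0.1 (log axis) against the log2 difference between tubes for all 16550 genes, with vertical lines at CYP71B34, CYP71B6 and CYP71B23. The lines lie together at 0.63 to 0.69 in the first comparison, where that of CYP71B6 is hidden by that of CYP71B23, and apart, from -0.14 to 0.97, in the second.

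The spread between arrays was also uneven across the tubes. On the ground the SDs of the 3 genes, 0.022 to 0.060, were low, and 6.71% to 14.6% of genes had a lower SD there. In the first-actuated tube the SDs were 0.14 to 0.29, and 57.3% of genes had a lower one than CYP71B34, 80.5% than CYP71B6 and 90.0% than CYP71B23. For all 3 genes first-actuated replicate 2 was the lowest and replicate 3 the highest of that tube, an order that 4 of the 18 other CYP71B genes and 12.9% of all genes shared. Without first-actuated replicate 3, first-actuated minus ground was 0.53 for CYP71B6 and 0.49 for CYP71B23.

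Correlations between arrays of a tube, across genes, which are not independent replicates, were 0.976 to 0.984 on the ground and 0.984 to 0.991 in the flight tubes. Ground replicate 2 stood apart in the chloroplast-encoded transcripts. The median deviation of their 63 measured members from each gene's mean was -0.0050 there, against 1.22 and 0.82 in ground replicates 1 and 3 and -0.48 to -0.15 in the flight arrays. The ground replicates of CYP71B6 and CYP71B23 lay within 0.059 and 0.041 of each other. Those of CYP71B34 lay within 0.11 of each other, with replicate 2 the highest, on the side of the flight arrays. Without ground replicate 2, first-actuated minus ground was 0.72 for CYP71B34, 0.63 for CYP71B6 and 0.64 for CYP71B23. Of 9 listed root markers 3 were measured, and PYK10, a beta-glucosidase abundant in roots, stood at 11.1 to 11.7 on the 9 arrays. The PYK10 arrays of each tube lay apart, highest on the ground and lowest in the last-actuated tube, with differences from ground of -0.24 and -0.40 (limma, adjusted p = 0.297 and 0.148). Of 7 listed shoot markers 2 were measured, with RCA (Rubisco activase) at 6.38 to 6.86 and LHCB4.1 (a light-harvesting protein) at 4.71 to 4.92, and limma called neither between any 2 tubes (lowest adjusted p = 0.412, and 0 at an unadjusted p under 0.05). The last-actuated arrays of RCA all lay below its ground and first-actuated arrays, with differences of -0.21 and -0.25, while the tubes overlapped for LHCB4.1. EXPA18, a root hair expansin, was higher in first-actuated than in ground roots by 0.96 (limma, adjusted p = 0.0203), a call lost (adjusted p up to 0.0861) on leaving out replicate 1 or 3 of the ground tube or of the first-actuated tube. EXPA7, another root hair expansin, had a difference of -0.63 there (adjusted p = 0.0685). In bulk roots, more cells of a type and more RNA per cell cannot be told apart, and the part of these markers in the P450 levels was not tested.

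The next question was whether the rest of the subfamily showed the same differences. None of the 18 other measured CYP71B genes was called between any 2 tubes by limma at a Benjamini-Hochberg adjusted p under 0.05 over all genes, nor were any of the 5 P450 genes of other families. Over the 23 genes, 1, 2 and 1 had an unadjusted p under 0.05 for first-actuated against ground, last-actuated against ground and last-actuated against first-actuated, as did 16.9%, 12.4% and 13.4% of all genes tested. Of all genes, 4.69%, 0.912% and 2.24% were called in these comparisons at the adjusted threshold. The 18 CYP71B genes had a median first-actuated minus ground difference of -0.016, with 8 positive and 10 negative, beside a median of 0.0098 over all genes. For last-actuated minus ground the median was 0.062, with 13 positive and 5 negative, beside 0.026 over all genes. Over all 16550 genes, 8677 were positive and 7870 negative in the first of these comparisons, and 9219 and 7326 in the second. Of these 18 genes 15 had a mean level under the median gene mean and detection calls were lacking, so the absence of limma calls does not show equal levels.

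CYP71B29 had the largest differences from ground of the 18. It stood at 3.30, 4.56 and 3.58 on the ground arrays, at 5.29, 4.44 and 4.44 on the first-actuated and at 4.39, 4.79 and 4.52 on the last-actuated arrays. First-actuated replicates 2 and 3 held the same value. Ground replicate 2 lay among the flight arrays and the other ground arrays lay below all of them. The difference from ground was 0.91 in first-actuated roots (limma, adjusted p = 0.171) and 0.75 in last-actuated roots (adjusted p = 0.380). Without ground replicate 2 the first of these was 1.28 and passed (adjusted p = 0.0175), so the count of called P450 genes other than the 3 went from 0 to 1. Over the 9 fits without 1 array its adjusted p ran from 0.0175 to 0.445.

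Along the chromosome 3 run, the measured genes beside the 2 listed ones gave no call. Next to CYP71B34, CYP71B35 stood at 1.82 ± 0.17 (SD, n = 3) on the ground, 2.22 ± 0.47 in first-actuated and 2.36 ± 0.58 in last-actuated roots. Its means were ordered as those of CYP71B34, but its tubes overlapped (differences from ground of 0.40 and 0.54, limma adjusted p = 0.572 and 0.510). CYP71B36, the next gene, had differences of 0.13 and -0.24, and CYP71B37, which ends the run, of -0.013 and 0.23. CYP71B26, the measured gene before CYP71B34, had -0.099 and 0.055. Its last-actuated arrays all lay above its first-actuated arrays, as those of CYP71B34 did, with a difference of 0.15 (limma, adjusted p = 0.563). The gap was only 0.016, and the mean level of CYP71B26 was above that of just 1.12% of genes.

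Next to CYP71B23, CYP71B22 had differences from ground of -0.13 in first-actuated and -0.20 in last-actuated roots. CYP71B21, one place further, stood at 3.12 ± 0.46 (SD, n = 3), 3.53 ± 0.12 and 3.07 ± 0.28 in the 3 tubes. Its last-actuated arrays all lay below its first-actuated arrays, as those of CYP71B23 did, with a difference of -0.46 (limma, adjusted p = 0.400). CYP71B24, the next measured gene on the other side, had differences from ground of -0.044 and 0.069. The remaining measured CYP71B genes of the run were CYP71B25 (0.31 and 0.45), CYP71B16 (-0.14 and 0.095), CYP71B19 (-0.19 and -0.25) and CYP71B20 (-0.058 and 0.040), and their adjusted p was at least 0.350. The run also holds 3 measured genes that are not CYP71B. Their differences from ground were -0.28 to 0.15 in first-actuated and -0.37 to 0.15 in last-actuated roots (limma, lowest adjusted p = 0.427 and 0.367). Tandem copies are alike in sequence and the probe sequences were not analysed here, so a share of signal from a neighbouring copy was not tested.

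**Figure D3:**
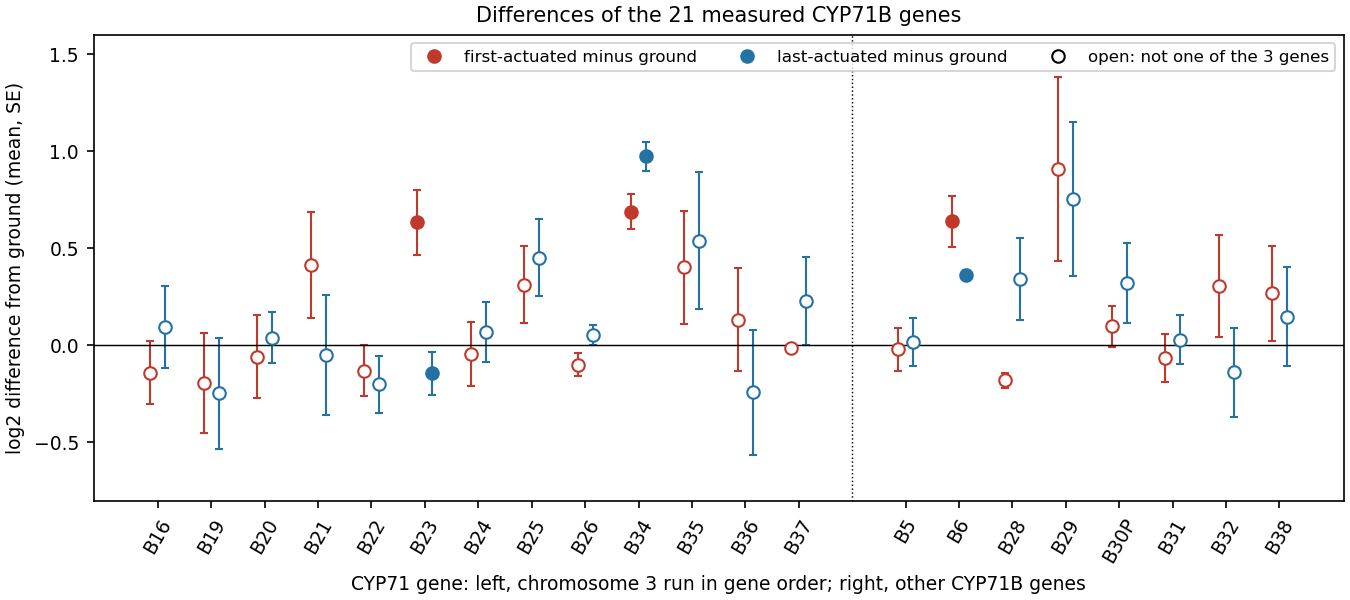
Log2 difference of the group means from ground (points) with the SE of the difference (bars) for the 21 measured CYP71B genes, red for first-actuated and blue for last-actuated roots. Genes of the chromosome 3 run stand to the left in gene order and the others to the right, and filled points are the 3 listed genes. Most open points lie within 0.5 of 0, with wide bars for B29, B35 and B36.

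Of the CYP71B genes outside the run, CYP71B28 stood at 1.36 ± 0.052 (SD, n = 3) on the ground, 1.19 ± 0.041 in first-actuated and 1.71 ± 0.36 in last-actuated roots. Its first-actuated arrays lay below the other 6, and neither its first-actuated minus ground difference, -0.18, nor its difference between the flight tubes, 0.52, passed (limma, adjusted p = 0.654 and 0.152). CYP71B38 had differences from ground of 0.27 and 0.15, CYP71B32 of 0.31 and -0.14, CYP71B5 of -0.019 and 0.016 and CYP71B31 of -0.064 and 0.030. CYP71B30P, named as a pseudogene, had 0.098 and 0.32. PAD3 (CYP71B15), which makes the last steps of camalexin, the main phytoalexin of Arabidopsis, was not analysed here.

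The 5 P450 genes of other families had differences from ground of -0.24 to 0.12 in first-actuated and -0.25 to 0.13 in last-actuated roots. CYP84A4, which acts in the synthesis of arabidopyrones, gave the lowest of each (limma, adjusted p = 0.336 and 0.408). CYP79A2, which turns phenylalanine into its oxime, had -0.082 and 0.13, and CYP78A9, which promotes seed and fruit growth, 0.12 and -0.040.

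Glutathione transferases of the tau and phi classes, which couple glutathione to reactive compounds and often act after P450s in detoxification, were measured for 14 of 42 genes. None was called in any of the 3 comparisons by limma, while 2, 4 and 3 had an unadjusted p under 0.05, beside the 16.9%, 12.4% and 13.4% of all genes. Their median differences were 0.039 and 0.062 from ground in first-actuated and last-actuated roots. GSTF4 gave the lowest adjusted p from ground, in the last-actuated tube, where it stood at 2.33 ± 0.0825 (SD, n = 3) against 1.66 ± 0.36 (adjusted p = 0.123). GSTU22 had a difference of 0.45 in first-actuated roots (adjusted p = 0.227). Differences went both ways, and in last-actuated roots 9 of the 14 were positive and 5 negative, beside 9219 and 7326 of all genes. The largest falls there were in GSTU20, -0.81, and GSTF3, -0.54 (limma, adjusted p = 0.293 and 0.350). Of 21 listed genes of indole-3-acetonitrile and camalexin metabolism, 1 was measured in addition to CYP71B6, which stood outside the list. This gene, AT1G26380, an oxidase of that pathway known as FOX1, had differences of -0.029 and -0.011 (adjusted p = 0.947 and 0.984). The 9 listed electron donors of P450s, the reductases and cytochromes b5, were not analysed here.

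The genes whose levels followed each of the 3 most closely over the 9 arrays were sought among 8274 genes above the median gene mean. Pearson's r is the measure of likeness, is given with no test, and rests on arrays that fall into 3 tubes, so that it mainly compares the 3 tube means. The genes below were picked by this r, so a tube order shared with the listed gene largely follows from the choice. For CYP71B34 the 5 most alike were AT2G36950 (r of 0.97), LBD16 (0.95), AT5G37670 (0.95), AT1G72660 (0.93) and AT1G30070 (0.93). LBD16 is a regulator of lateral root initiation, and its differences from ground were 0.53 and 0.71. AT5G37670 encodes a small heat shock protein and had the much larger differences of 2.78 and 3.03. Of 6 listed heat genes 4 were measured, and all 4 rose in both flight tubes, by 1.52 to 3.74 on the log2 scale (limma, highest adjusted p = 0.00458, and all were called in every fit without 1 array). The differences of CYP71B34, 0.69 and 0.97, had the same sign and were smaller, as were those of CYP71B6, 0.64 and 0.36. Last-actuated minus first-actuated was positive for CYP71B34 (0.28) and for 1 of the 4 heat genes, AT5G37670 (0.25). It was negative for the other 3 heat genes (-0.76 to -0.043). A link between the heat genes and CYP71B34 was not tested.

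For CYP71B6 the 5 most alike genes were AT2G38610 (r of 0.96), AT5G61530 (0.96), AT4G21110 (0.95), AT5G25930 (0.94) and AT2G25260 (0.94). Of these, 4 had first-actuated minus ground differences of 0.55 to 0.71, close to the 0.64 of CYP71B6, and AT5G25930 had 1.65. For CYP71B23 they were AT2G44410 (0.98), AT3G18950 (0.96), AT1G69680 (0.96), AT5G49990 (0.96) and AT5G62460 (0.95). These had differences of 0.37 to 0.71 in first-actuated and -0.15 to -0.0093 in last-actuated roots. No P450 gene was among the 15. Besides the listed genes, only 4 of the 23 other P450 genes lay above the median gene mean and could be found. With so few candidates, this absence cannot show whether P450 genes followed the listed ones.

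**Figure D4:**
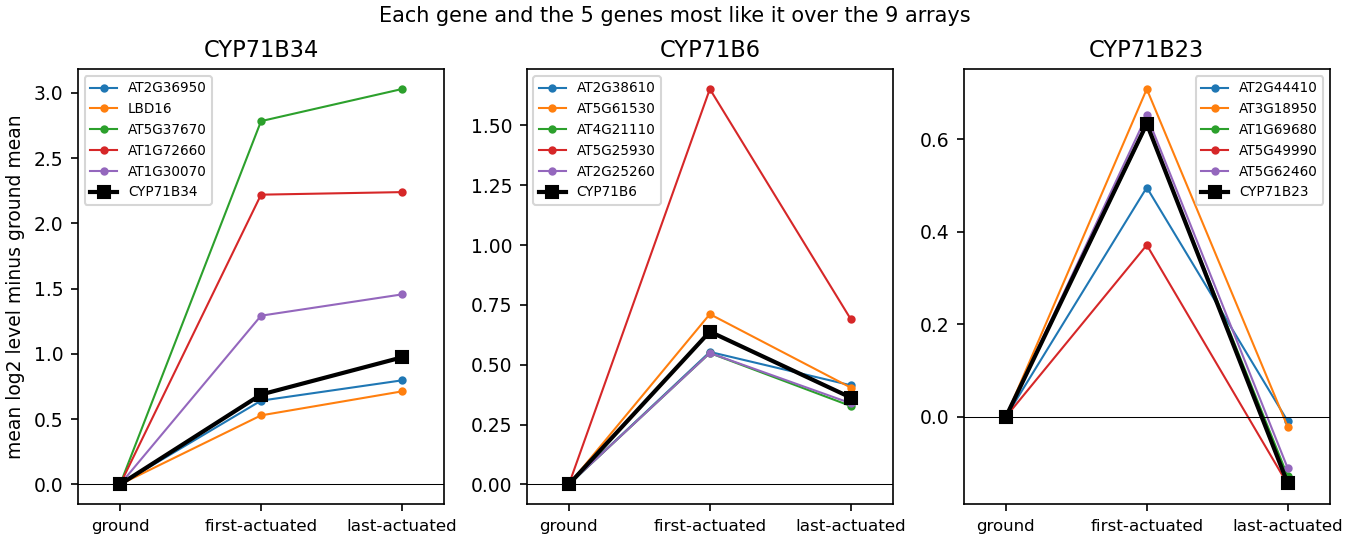
Mean log2 level minus the ground mean (vertical axis, with its own scale in each panel) in the 3 tubes for CYP71B34, CYP71B6 and CYP71B23 (black squares) and the 5 genes most like each by Pearson's r over the 9 arrays (coloured circles). The genes were picked for this likeness. Genes like CYP71B34 were also high in the last-actuated tube, and those like CYP71B23 had last-actuated means at or just below the ground mean.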

How the data were processed

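Whole-root RNA was hybridised to 1-colour AraGene 1.0 ST arrays, 9 in all. The deposited log2 expression values are RMA values, per the submitters' processing notes, which also list the packages oligo and limma, R 4.0.0 and the build TAIR10. Further settings were not stated. No detection calls were available, and the number of arrays limits the precision. Of 38408 probe sets, 16722 named 1 gene, 759 named several and 20927 were not listed. Where a gene had several probe sets (146 genes), the one with the highest mean was used, giving 16550 genes. The RefSeq table (TAIR10.1) served for names and gene order only.

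Tubes were compared with limma 3.58.1 in R 4.3.3 on all 9 arrays, a model of the 3 groups, moderation without trend and Benjamini-Hochberg adjustment over all genes, called under 0.05. The script was tested on simulated data. The members and lists were chosen with earlier results of these data known. P450 genes were taken by CYP symbols with a family and subfamily or a family number of 3 digits, since a bare CYP number also names cyclophilins; this narrowing of the rule was made after the files were seen. Named genes are the 3 members, every other measured CYP71B gene, called or otherwise lowest-p members of the lists, and the 5 genes most like each member; the other P450 genes, glutathione transferases and neighbours named beyond these were chosen after their values were seen. Alternatives were cyclic loess, a filter at the median gene mean, moderation with trend, a replicate block, the mean over probe sets, 2-group fits and leaving out each array in turn. Figures used Python 3.11.15 and matplotlib 3.10.9.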

Additional observations from a re-analysis of the deposited data

Results flagged for a closer look

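The difference between the flight tubes passed for 1 of the 4 measured heat genes and 1 of the 3 measured root markers. Of all genes, 2.24% were called in this comparison. AT1G52560, a small heat shock protein gene, had a last-actuated minus first-actuated difference of -0.76 on the log2 scale (limma, adjusted p = 0.00605), and stayed called in each of the 9 fits without 1 array. EXPA18 had a difference of -0.90 (adjusted p = 0.0454), and this call was lost in 8 of those 9 fits (adjusted p up to 0.154). Among the 3 P450 genes, none had all arrays of one flight tube above and all arrays of the other below the ground mean.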

How the results depend on the processing

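The differences of CYP71B34, CYP71B6 and CYP71B23 kept their sign and moved by less than 1 SD between replicates in all 108 recomputed values. The SD limit was fixed in advance for most of these. Leaving out an array always shifts a tube's mean by less than that SD. The replicate block and the mean over probe sets cannot change these differences. Only cyclic loess was free to pass the limit, and it gave first-actuated minus ground of 0.71, 0.67 and 0.64. Without 1 array, first-actuated minus ground ran from 0.63 to 0.77 for CYP71B34, 0.53 to 0.75 for CYP71B6 and 0.49 to 0.78 for CYP71B23. Last-actuated minus ground ran from 0.91 to 1.01, 0.35 to 0.38 and -0.22 to -0.037, and last-actuated minus first-actuated from 0.20 to 0.34, -0.39 to -0.165 and -0.92 to -0.63. The count of other P450 genes called stayed at 0 of 23 in 44 of 45 recomputed values and ran from 0 to 1 for first-actuated against ground without 1 array. With the filter, which only 4 of the 23 passed, it was also 0.

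Counts over all genes moved more. Without 1 array they ran from 384 to 1253 for first-actuated against ground (776 with all), 53 to 508 for last-actuated against ground (151) and 100 to 495 for last-actuated against first-actuated (371). With fits to the 2 groups compared they were 419 and 28 for the first 2 comparisons, and with genes above the median gene mean 255 for last-actuated against ground; fewer arrays and fewer genes enter these fits. Among the fits without 1 array, the highest and lowest counts against ground came from leaving out ground replicate 2 (1253 and 508), and from leaving out first-actuated replicate 3 (384) or last-actuated replicate 3 (53).

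The labels do not say whether replicate numbers pair the arrays. Deviations from the group means of same-numbered arrays had correlations of -0.11 to 0.070, so no strong shared effect of the number was seen. Arrays of different numbers were not compared in this way. With the replicate block, 700, 109 and 303 genes were called in the 3 comparisons, beside 776, 151 and 371 without it, and 0 other P450 genes were called in each. The differences of the 3 genes cannot change under this block, since every tube holds every replicate number.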

Other observations

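Some P450 probe sets, dim ones among them, held the same value, to every deposited digit written here, on several arrays. CYP71B5 stood at 1.63 on the 3 first-actuated arrays and on last-actuated replicate 1. CYP71B37 stood at that same value, 1.63, on ground replicates 1 and 2 and first-actuated replicates 1 and 2, and CYP78A9 at 1.13 on all 3 ground arrays. Repeats were not confined to dim rows. CYP84A4, with a mean level above that of 70.9% of genes, stood at 3.57 on ground replicate 1, first-actuated replicates 2 and 3 and last-actuated replicate 1. CYP71B29, above 79.4% of genes, stood at 4.44 on first-actuated replicates 2 and 3. Over all probe sets, 649 had equal values on the 3 ground arrays, 754 on the first-actuated and 660 on the last-actuated arrays. Among the 3 listed genes, CYP71B34 and CYP71B23 had 9 distinct values on the 9 arrays and CYP71B6 had 8. SDs at or near 0 in these rows are therefore no measure of their replicate error.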
